A study of Mus musculus with 18 samples.

Results

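The metabotropic glutamate receptors examined here were 6 genes of the count table, *Grm2*, *Grm3*, *Grm4*, *Grm5*, *Grm7* and *Grm8*, chosen by symbol from its 55573 Ensembl genes. Expression was measured by RNA-Seq in the ipsilateral dorsal horn of the spinal cord (DHSC), dissected 2 h after formalin had been injected into a hind paw. The 18 samples came from C57BL/6J mice, adult and 8 to 12 weeks old according to the methods, all injected with 2% formalin. They formed 3 groups of 6. Males were the first group. F1/proestrus females combined a short interphase, the time of reduced pain between the phases of the formalin response, with the proestrus stage of the estrus cycle. F2/metestrus females combined a long interphase with metestrus. Behavioral type and cycle stage were chosen together, and their parts in a difference between the female groups cannot be told apart. Samples without formalin were not analysed here, so that the values describe the injected state and not a response to the injection. Nothing in the labels says how many mice went into a sample, and p-values measure the spread between these samples.

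Metabotropic glutamate receptors are G protein-coupled receptors that sense glutamate and set the strength of synapses over longer times than the ion channel receptors do. They are sorted into groups by sequence and signaling. *Grm5* encodes mGlu5, a group I receptor that couples to Gq, phospholipase C and release of calcium from internal stores, and sits mainly beside the postsynaptic density. *Grm2* and *Grm3* encode the group II receptors, and *Grm4*, *Grm7* and *Grm8* the group III receptors. Receptors of groups II and III couple to Gi/o, which lowers cyclic AMP, and many of them reduce transmitter release from presynaptic terminals. mGlu3 is also made by astrocytes. In the dorsal horn, mGlu5 is known for promoting central sensitization, and agonists of the group II and III receptors for dampening nociceptive transmission.

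The 6 genes are paralogs, and their coding sequences show how far reads from them can be told apart. In GENCODE vM21 on GRCm38, *Grm4*, *Grm7* and *Grm8* shared 68.3% to 69.2% of their coding bases pairwise and *Grm2* and *Grm3* shared 66.3%, whereas pairs from different groups shared 50.9% to 56.2%. The longest identical run between 2 of the coding sequences was 27 bases, between *Grm3* and *Grm4*. A stretch of 60 coding bases from the most alike part of the family is given here for 5 of the receptors from the reference. It is written 5′ to 3′ on the coding strand and shows the relatedness of the family. Its base composition describes these 60 bases only. Capitals mark G and C.
Grm5: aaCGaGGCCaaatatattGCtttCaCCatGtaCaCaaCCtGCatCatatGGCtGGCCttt
Grm3: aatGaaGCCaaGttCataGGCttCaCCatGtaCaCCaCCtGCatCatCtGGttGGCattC
Grm4: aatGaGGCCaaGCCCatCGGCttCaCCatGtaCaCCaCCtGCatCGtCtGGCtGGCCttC
Grm7: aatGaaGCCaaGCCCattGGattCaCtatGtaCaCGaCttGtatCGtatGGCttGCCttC
Grm8: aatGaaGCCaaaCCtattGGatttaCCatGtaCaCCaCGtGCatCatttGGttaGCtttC
These bases lie at chr7:88074805-88074864 (plus strand) in exon 7 of *Grm5*, chr5:9511494-9511553 (minus strand) in exon 4 of *Grm3*, chr17:27434572-27434631 (minus strand) in exon 9 of *Grm4*, chr6:111358982-111359041 (plus strand) in exon 8 of *Grm7* and chr6:27363124-27363183 (minus strand) in exon 9 of *Grm8*. G and C took 35 of the 60 bases in *Grm4*, compared with 28 in *Grm3*, 27 in *Grm7*, 26 in *Grm5* and 24 in *Grm8*. Over the longest annotated transcript these 5 had the same order, the GC content being 61.7% in *Grm4*, 56.9% in *Grm2*, 47.6% in *Grm3*, 47.2% in *Grm7*, 42.5% in *Grm5* and 41.9% in *Grm8*. Over the whole coding sequence the order was another, with 60.7% in *Grm2*, 60.3% in *Grm4* and 51.6% in *Grm5*. There *Grm7* had 49.4%, *Grm3* 48.4% and *Grm8* 47.4%.

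The genes differ widely in extent. *Grm2* (ENSMUSG00000023192) is compact, on the minus strand of chromosome 9 from 106643095 to 106656082. *Grm3* (ENSMUSG00000003974) lies on the minus strand of chromosome 5 from 9485541 to 9725170 and *Grm4* (ENSMUSG00000063239) on the minus strand of chromosome 17 from 27422387 to 27521403. *Grm5* (ENSMUSG00000049583) covers chromosome 7 from 87584168 to 88134907 on the plus strand. *Grm7* (ENSMUSG00000056755, plus strand, 110645581 to 111567230) and *Grm8* (ENSMUSG00000024211, minus strand, 27275119 to 28135178) both lie on chromosome 6. Other annotated genes share exon bases with 3 of the receptors. The antisense gene *Gm28111*, which shares 470 bases with *Grm2*, had at most 5 counts in a sample, and *Mir592* in an exon of *Grm8* at most 1. *Gm20387*, antisense to *Grm7* over 130 bases, had 261 to 514 counts, or 4.68% of the counts of *Grm7*. Whether the counting used the strand is not stated, so that part of these counts cannot be assigned.

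Each sample held between 73590509 and 125724156 counts, and a receptor had between 434 counts (*Grm2*) and 15615 counts (*Grm5*) in a sample, far above the floor of 3 counts. All 6 receptors passed the filter on low counts in each comparison. Library numbers, which the count table gives in its header, form 2 series, one with replicates 1 to 3 of every group (27 to 35) and the other with replicates 4 to 6 (188 to 196), and the samples of the series stand apart over many genes. Each comparison is therefore also given within each series. F1/proestrus sample 5 stood apart by markers of dorsal root ganglion neurons, whose summed level over 9 genes was 646 CPM (counts scaled to library size, with TMM normalization) compared with 10.9 to 37.8 CPM elsewhere, and it also had the highest summed level of 9 motor neuron and ventral horn markers (396 CPM). Defining markers of dorsal horn neurons were present in every sample, with a summed level of 594 to 1105 CPM over 14 genes. In such tissue samples, fewer cells of a type and less RNA per cell cannot be told apart.

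The receptors fell into an abundant set and a scarce set (plot of receptor levels per exon length). Per kilobase of exon, *Grm3* was highest with 18.2 ± 1.70 RPKM (CPM divided by the exon length in kilobases; SD, n = 18), followed by *Grm7* with 13.3 ± 1.37, *Grm5* with 10.1 ± 1.72 and *Grm4* with 9.48 ± 0.855 RPKM. *Grm8* with 1.71 ± 0.123 RPKM and *Grm2* with 1.26 ± 0.214 RPKM were far lower. *Grm3* lay above *Grm7* in 18 of 18 samples and *Grm7* above *Grm5* in 18 of 18. *Grm5* and *Grm4* did not differ beyond their spread, *Grm5* being the higher of the pair in 8 of 18 samples. *Grm4* lay above *Grm8* in 18 of 18 samples without overlap of their ranges, and *Grm8* above *Grm2* in 16 of 18. Among 24849 tested genes with a known exon length, *Grm3* stood at the 85.5 percentile of mean RPKM and *Grm4* at the 74.8 percentile, while *Grm8* and *Grm2* stood at the 43.6 and 38.8 percentiles. The order at the top depended on the length used, which for *Grm7* was 5886 bases over all exons and 4210 bases for the longest transcript, and 3049 bases by either for *Grm3*. With the length of the longest transcript in place of all exons, *Grm7* had 18.6 ± 1.92 RPKM and *Grm3* 18.2 ± 1.70 RPKM, *Grm7* being higher in 12 of 18 samples, and *Grm8* had 3.53 ± 0.254 RPKM. The group II receptors therefore held both the most and the least abundant member over exons, at unequal levels of *Grm3* and *Grm2* in every sample.

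**Figure D1:**
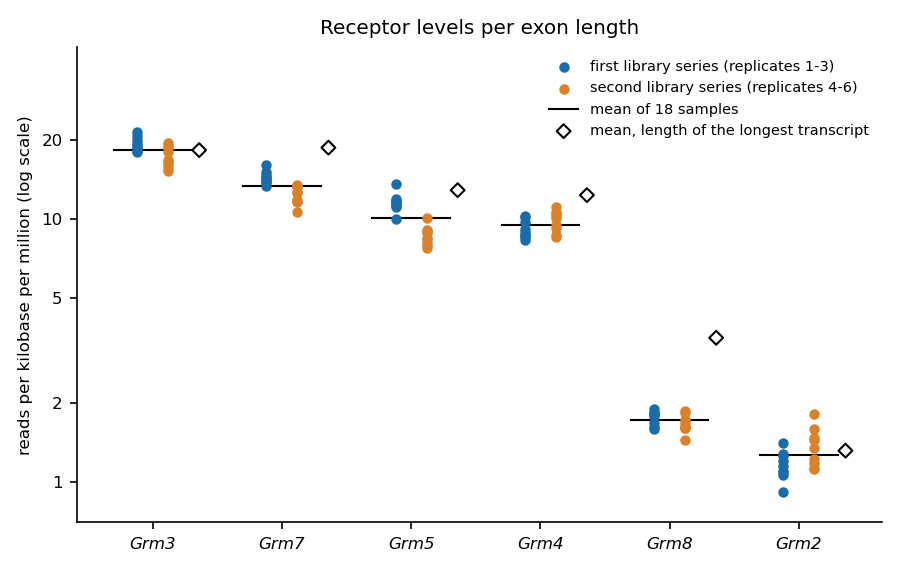
RPKM over all exons on a log axis for each receptor, 1 point per sample (blue, first library series; orange, second series), with the mean of 18 samples as a line and, as an open diamond, the mean when the length of the longest transcript is used. *Grm3*, *Grm7*, *Grm5* and *Grm4* lie between 7.74 and 21.3 RPKM and *Grm8* and *Grm2* between 0.913 and 1.90 RPKM.

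The first comparison asked whether the receptors differed between males and females, the 12 females being taken as 1 condition. No receptor passed an FDR of 5% in the quasi-likelihood test of edgeR (0 of 6, against 0.197% of the 24862 genes tested). At an unadjusted p under 0.05 there was 1 receptor, *Grm2*, where 9.72% of all genes had such a p, and DESeq2 also called 0 of 6. The median log2 fold change (log2FC), males over females, was -0.062 over the receptors and -0.0013 over all genes tested. CPM ranges of males and females overlapped for all 6 receptors, against 0.125% of genes whose ranges did not overlap.

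*Grm2*, the low-abundance presynaptic group II receptor, had the largest difference. Its expression was 5.63, 6.71 and 8.82 CPM (lowest, median, highest) in the 6 males. In F1/proestrus the corresponding values were 4.47, 5.83 and 6.89 CPM, and in F2/metestrus 5.21, 5.44 and 7.07 CPM. The 3 males above every female were all of the second library series. The mean was 6.96 ± 1.196 CPM in males (SD, n = 6) and 5.79 ± 0.750 CPM in females (SD, n = 12), a log2FC of 0.26 (standard error 0.0992, 95% confidence interval 0.057 to 0.47, unadjusted p of 0.0149 and adjusted p of 0.388 in the edgeR fit). Within the first series alone it was 0.10, compared with 0.39 within the second, where the 3 males (7.18 to 8.82 CPM) lay above the 6 females (5.46 to 7.07 CPM). Ranges of the sexes did not overlap for 5.24% of all genes within the second series and for 3.85% within the first. The difference between the series in the effect of sex was 0.27 on the log2 scale (standard error 0.164, adjusted p of 0.964 for the interaction in edgeR). The adjusted p of *Grm2* was 0.148 with the library series as a covariate.

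The other receptors differed less between the sexes. *Grm3*, the group II receptor also made by astrocytes, had 53.4 ± 4.64 CPM in males and 56.7 ± 5.26 CPM in females (SD, n = 6 and 12). *Grm5* had 101 ± 20.6 CPM in males and 105 ± 16.8 CPM in females, and this wide spread within each sex held the values of the separate library series. The group III receptors *Grm4*, *Grm7* and *Grm8* had 56.3 ± 4.80, 75.4 ± 8.88 and 16.4 ± 1.39 CPM in males and 56.8 ± 5.45, 80.0 ± 7.55 and 17.2 ± 1.09 CPM in females. Log2FCs of these 5 receptors lay between -0.088 (*Grm3*) and -0.013 (*Grm4*), with adjusted p of 0.661 to 0.959 in the edgeR fit. The widest 95% confidence interval of the 5 was that of *Grm5*, from -0.29 to 0.18 on the log2 scale, or fold changes from 0.816 to 1.13, and it enclosed the other 4. Within the first series alone the log2FCs of these receptors ran from -0.071 (*Grm3*) to 0.036 (*Grm4*) and within the second from -0.15 (*Grm5*) to -0.068 (*Grm4*). The difference between the series in the effect of sex had an adjusted p of 0.964 to 0.979 for all 6 receptors in edgeR.

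Some lists of cell markers differed between the sexes, where 0.197% of all genes passed the FDR. The 8 Schwann cell markers had a summed level of 2114 to 4937 CPM in males and 1458 to 2873 CPM in females, with a median log2FC of 0.64 and 2 of 8 genes past the FDR (*Ncmap*, *Cntf*). The 14 dorsal horn neuron markers had summed levels of 782 to 1105 CPM in males and 594 to 904 CPM in females, with a median log2FC of 0.24 and 2 of 14 genes past the FDR (*Penk*, *Grp*). None of the 8 and none of the 14 were at 0 in all samples. The 12 general neuron markers had a median log2FC of -0.049 and the 10 astrocyte markers 0.011, with 0 genes past the FDR in either list. The 9 motor neuron and ventral horn markers had a median log2FC of -0.56, from -2.07 (*Isl2*) to -0.17, with 0 of 9 past the FDR. Their summed levels were 36.3 to 221 CPM in males and 50.0 to 396 CPM in females, the highest being F1/proestrus sample 5. The part of cell composition in the value of *Grm2* was not tested.

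**Figure D2:**
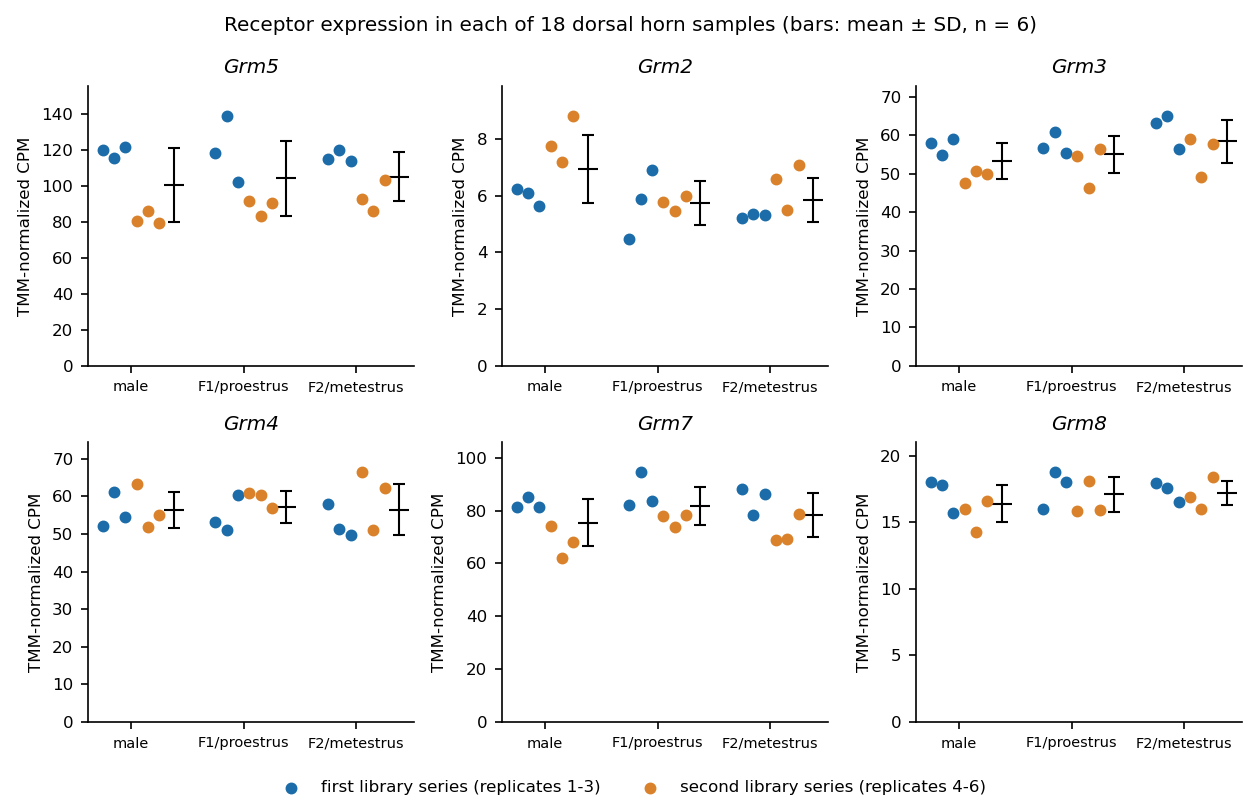
TMM-normalized CPM of each receptor in the 6 samples of each group (blue, first library series; orange, second series), in order of replicate number, with mean ± SD to the right. *Grm5* in the second series lies at 79.3 to 103 CPM and in the first at 102 to 139 CPM in all 3 groups, and the 3 highest values of *Grm2* are males of the second series.

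The second comparison asked whether the female groups, which differ in behavior and cycle stage, differed in receptor expression. No receptor passed the FDR in edgeR (0 of 6, against 0% of the 24042 genes tested, with 596 genes, or 2.48%, at an unadjusted p under 0.05), none had an unadjusted p under 0.05, and DESeq2, which called 2 genes, called 0 receptors. *Grm3* had the largest difference. It had 46.3, 55.9 and 60.8 CPM (lowest, median, highest) in F1/proestrus and 49.3, 58.4 and 65.0 CPM in F2/metestrus, with 2 F2/metestrus samples above all of F1/proestrus. F2/metestrus over F1/proestrus gave a log2FC of 0.086 (standard error 0.0754, 95% confidence interval -0.075 to 0.25, adjusted p of 1.0 in the edgeR fit). *Grm7*, the most abundant group III receptor, had 73.8, 80.3 and 94.5 CPM in F1/proestrus and 68.9, 78.6 and 88.3 CPM in F2/metestrus, a log2FC of -0.063 (standard error 0.0764). Both ranges overlapped widely. Both genes kept their sign within each library series, with a log2FC of 0.090 and 0.079 for *Grm3* and of -0.048 and -0.083 for *Grm7* in the first and the second.

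The means of the remaining receptors were close. *Grm5* had 104 ± 20.9 CPM in F1/proestrus and 105 ± 13.5 CPM in F2/metestrus (SD, n = 6 each). *Grm2* had 5.74 ± 0.788 and 5.85 ± 0.781 CPM, *Grm4* 57.2 ± 4.23 and 56.5 ± 6.88 CPM, and *Grm8* 17.1 ± 1.33 and 17.2 ± 0.921 CPM, in the same order. These 4 log2FCs lay between -0.018 and 0.024, with adjusted p of 1.0, and each changed sign between the library series, *Grm2* from -0.12 in the first to 0.15 in the second, *Grm5* from -0.053 to 0.089, *Grm4* from -0.056 to 0.015 and *Grm8* from -0.028 to 0.043. These changes of sign were not past the FDR as a difference between the series (adjusted p of 1.0 in edgeR for all 6 receptors). The 95% confidence intervals ran from -0.21 to 0.26 for *Grm2* and from -0.25 to 0.27 for *Grm5*, the widest pair, and from -0.13 to 0.15 for *Grm8*, the narrowest. CPM ranges overlapped for all 6 receptors, against 0.108% of genes without overlap. Without F1/proestrus sample 5, 0 of 6 receptors passed the FDR in this comparison and in that between the sexes.

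**Figure D3:**
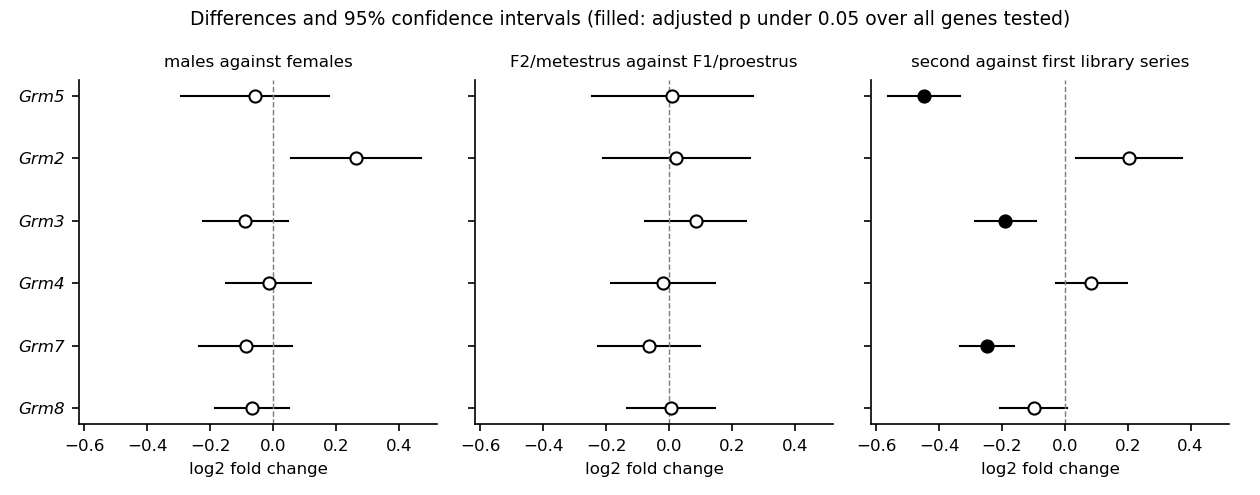
Log2FCs of the receptors in the edgeR fits with 95% confidence intervals, from left to right for males against females, F2/metestrus against F1/proestrus and the second against the first library series, on 1 common axis. Filled points (*Grm5*, *Grm3* and *Grm7*, right) have an adjusted p under 0.05 over all genes tested.

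In contrast, 3 of the 6 receptors were lower in the second library series than in the first, with the 3 groups as a term of the fit. Over all 24038 genes tested 27.6% passed the FDR, 15.2% as lower and 12.4% as higher. The 3 were *Grm5* of group I, *Grm3* of group II and *Grm7* of group III, and the other members of groups II and III did not pass. The median log2FC was -0.14 over the receptors and -0.015 over all genes. For none of the 6 were the CPM ranges of the series fully apart, against 4.22% of all genes, 2.72% with the second series lower.

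*Grm5* differed most. In the first series it had 116, 120 and 122 CPM in the 3 males (in ascending order, as in the rest of this paragraph), 102, 118 and 139 CPM in F1/proestrus and 114, 115 and 120 CPM in F2/metestrus. In the second series it had 79.3, 80.7 and 86.1 CPM in males, 83.2, 90.5 and 91.8 CPM in F1/proestrus and 86.2, 92.9 and 103 CPM in F2/metestrus. Every sample of the second series thus lay below every sample of the first within each group, which held in the same direction in all 3 groups for 7.59% of genes, 4.1% as lower. The mean fell from 118 ± 9.56 CPM to 88.2 ± 7.34 CPM (SD, n = 9 each), 26.7% lower by the fit, a log2FC of -0.45 (standard error 0.0548, edgeR adjusted p of 7.45e-06). With each group alone, 3 against 3, it was -0.54 in males (adjusted p of 0.00467), -0.44 in F1/proestrus (adjusted p of 0.0910) and -0.31 in F2/metestrus (adjusted p of 0.0599), each in its own edgeR fit. Of all genes, 4.9%, 0.314% and 3.23% passed in these 3 fits.

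*Grm7*, which encodes a presynaptic receptor of low glutamate affinity, was 15.7% lower. It had 78.5, 83.6 and 94.5 CPM (lowest, median, highest) in the first series and 62.2, 73.8 and 78.8 CPM in the second, where 8 of 9 samples lay below the lowest of the first. The log2FC was -0.25 (standard error 0.0412, adjusted p of 0.000175). *Grm3* was 12.3% lower, with 54.9, 58.1 and 65.0 CPM in the first series and 46.3, 50.8 and 59.0 CPM in the second, a log2FC of -0.19 (standard error 0.0466, adjusted p of 0.00479). Within groups, all samples of the second series lay below the first for *Grm7* in males and F1/proestrus and for *Grm3* in males, where ranges were apart in either direction for 27.4% of genes in males, 24.3% in F1/proestrus and 24.7% in F2/metestrus. In fits of each group alone, neither gene passed the FDR, although both were lower in all 3. *Grm8* had a log2FC of -0.099 (17.4 ± 1.04 and 16.5 ± 1.26 CPM, adjusted p of 0.155).

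The GC-rich receptors had values of the opposite sign that did not pass the FDR. *Grm4* had 54.6 ± 4.25 CPM in the first series and 58.7 ± 5.29 CPM in the second (log2FC 0.084, standard error 0.0542, adjusted p of 0.275 in edgeR). *Grm2* had 5.68 ± 0.699 and 6.68 ± 1.13 CPM (log2FC 0.20, standard error 0.0808, adjusted p of 0.0666). In males *Grm2* had 5.63 to 6.24 CPM in the first series and 7.18 to 8.82 CPM in the second, and in F2/metestrus 5.21 to 5.37 CPM and 5.51 to 7.07 CPM, without overlap in either group. In F1/proestrus the ranges overlapped, with a mean of 5.74 CPM in either series. *Grm2* passed the FDR with DESeq2 (log2FC 0.23, adjusted p of 0.0274), with size factors (adjusted p of 0.0471) and when F1/proestrus sample 2, 3 or 5 or F2/metestrus sample 5 was left out (adjusted p of 0.00643 to 0.0450), which made 4 of 6 receptors. Of all genes, 29% passed with DESeq2 and 28.1% with size factors. Without these samples, in the order given, it was 24.5%, 28.6%, 28.5% and 28.1%.

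Ratios of counts within a sample restate these differences on another scale. The 4 pairs were picked after the differences had been seen, with *Grm4* and *Grm2*, of the opposite sign, as denominators, so they are a description and no further support. The counts of *Grm5* were 1.694 to 2.72 times those of *Grm4* in the 9 samples of the first series and 1.27 to 1.686 times in the 9 of the second. The counts of *Grm7* were 1.381 to 1.85 times those of *Grm4* in the first series and 1.04 to 1.378 times in the second. These ranges lay close together without overlap, whereas those of the other 2 ratios overlapped. *Grm5* over *Grm2* was 14.9 to 26.5 in the first series and 8.99 to 15.9 in the second. *Grm3* over *Grm4* was 0.899 to 1.27 and 0.750 to 0.993. By group the ratio of *Grm5* to *Grm4* had overlapping ranges, with a median of 1.78 in males, 1.64 in F1/proestrus and 1.84 in F2/metestrus.

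**Figure D4:**
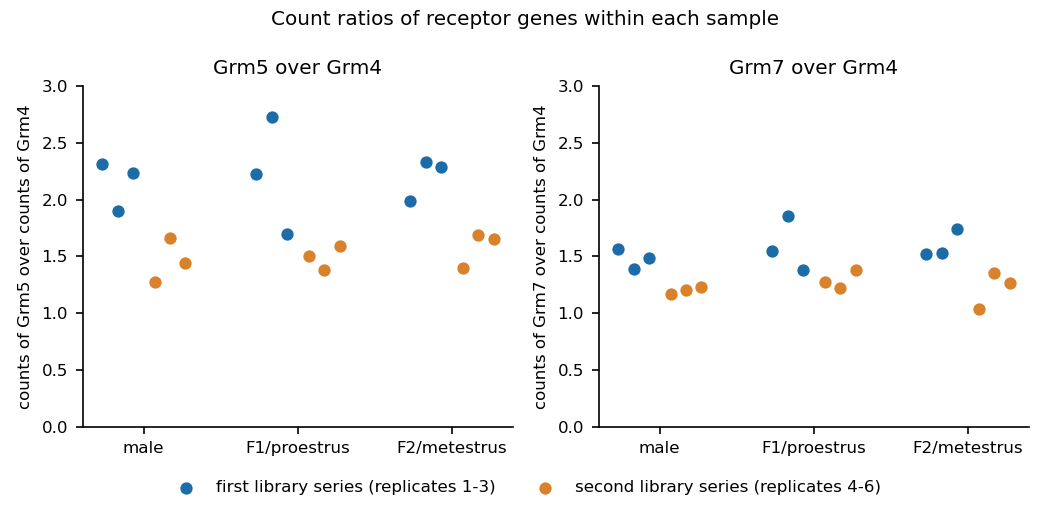
Ratio of the counts of *Grm5* (left) and *Grm7* (right) to those of *Grm4* within each sample, by group and library series (blue, first; orange, second), on axes that start at 0. The blue points of *Grm5* over *Grm4* lie at 1.694 or above and the orange points at 1.686 or below, in all 3 groups.

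The difference between the series varied with base composition and transcript length over all genes, and the receptors were placed within that pattern (plot of the difference by transcript GC and length). Its median was -0.11 in the lowest of 5 equal bins of genes by GC content, which holds *Grm5* and *Grm8*, and -0.054 in the next bin, which holds *Grm3* and *Grm7*. It was 0.084 in the bin with the highest GC content, which holds *Grm2* and *Grm4*. Across 5 bins of transcript length the median ran from 0.070 for transcripts of 1044 to 2075 bases to -0.17 for those above 4522 bases, of which 46.0% were lower at the FDR. *Grm5* has the longest annotated transcript of the 6, with 8047 bases, and *Grm3* the shortest, with 3049 bases. Among 529 genes within 2 percentage points of GC and 0.5 log2 units of length of *Grm5*, the median log2FC was -0.24, 57.7% passed as lower, and 16.1% had a value below that of *Grm5*. For *Grm7* 13.2% of 1753 such genes and for *Grm3* 14.96% of 1838 had a lower value. For *Grm2* 93.4% of 900 genes lay below it.

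With offsets for both GC content and length, an alternative chosen after seeing the data, *Grm5* remained lower in the second series, at a log2FC of -0.16 (standard error 0.0493, edgeR adjusted p of 0.0232) in place of -0.45. *Grm7* was at -0.17 (adjusted p of 0.00560) and *Grm3* at -0.18 (adjusted p of 0.00792), *Grm2* passed the FDR at 0.25 (adjusted p of 0.0425), and *Grm4* was at 0.094 and *Grm8* at 0.042. In this fit 20.5% of all genes passed. The size of the *Grm5* difference therefore depended on this correction. In the main fit, where 12.4% of all genes were higher and 15.2% lower, 9 of 14 dorsal horn neuron markers were higher and 1 lower (median log2FC 0.23). Of the endothelial cell markers 4 of 7 were lower and 0 higher (median -0.18). Markers of microglia (4 of 8 higher, 2 lower, median 0.14) and oligodendrocyte precursors (3 of 6 higher, 3 lower, median -0.018) went both ways. Fewer passed for neurons in general (1 of 12 higher, 1 lower), astrocytes (1 of 10 higher, 1 lower), oligodendrocytes (2 of 8 higher, 0 lower) and Schwann cells (1 of 8 higher, 0 lower). For motor neurons and ventral horn 0 of 9 passed. These marker counts are without the offsets for GC content and length. Over all genes, 21.5% of those with transcripts of 1044 to 2075 bases were higher, and 2.54% of those above 4522 bases. The part of transcript length in the marker counts was not tested, nor was that of the marked cell types in the receptor differences.

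**Figure D5:**
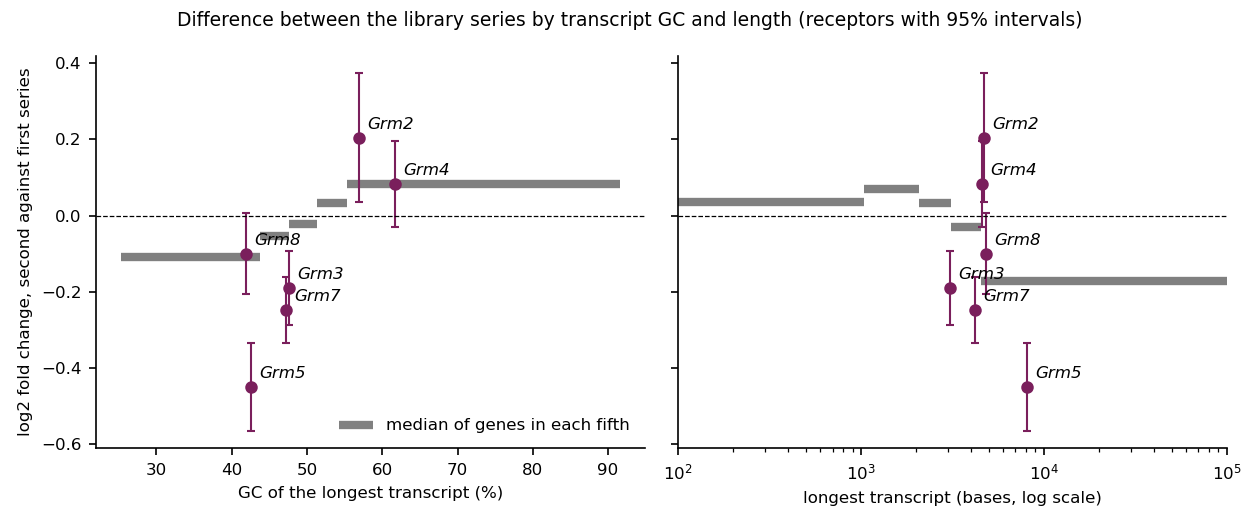
Log2FC of the second against the first library series for the 6 receptors (points with 95% confidence intervals) against the GC content (left) and length (right, log axis, cut at both ends) of the longest transcript, with grey bars for the median of all genes in each of 5 bins. *Grm2* and *Grm4* lie above 0 in the bin with the highest GC, and *Grm5* lies below the median of its bin on both axes.

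Genes of the receptor pathways were examined in 6 lists with 62 symbols, of which all 63 gene IDs were tested. In the comparisons of the sexes and of the female groups 0 of the 63 passed the FDR. Between males and females the smallest unadjusted p belonged to *Naalad2*, a peptidase of the mGlu3 agonist N-acetylaspartylglutamate (NAAG), with 1.26 ± 0.121 CPM in males and 1.61 ± 0.233 CPM in females (log2FC -0.35, p of 0.00321, adjusted p of 0.271). *Slc13a3*, a carboxylate transporter, followed with a log2FC of -0.25 (adjusted p of 0.323). *Adcy1*, an adenylyl cyclase that raises cyclic AMP, had 155 ± 21.6 CPM in males and 132 ± 13.7 CPM in females (log2FC 0.23, adjusted p of 0.328). Between the female groups *Grip1*, a PDZ scaffold, had 18.8 ± 0.514 CPM in F1/proestrus and 16.7 ± 1.07 CPM in F2/metestrus (log2FC -0.17, adjusted p of 1.0). The medians of the 6 lists lay between -0.15 (NAAG metabolism and glutamate exchange) and 0.045 for the sexes and between -0.030 and 0.046 for the female groups.

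Between the library series 25 of the 63 passed (39.7%, against 27.6% of all genes), 9 as higher and 16 as lower. Of all genes 12.4% were higher and 15.2% lower. The list of Gq and phospholipase C signaling, the path of mGlu5, held 7 of the 16 lower genes, with 7 of its 11 lower and 2 higher. These values are without the offsets for GC content and length. Of all genes with transcripts above 4522 bases, 46.0% were lower at the FDR. The part of transcript length in the values of this list was not tested. *Itpr1*, the main neuronal receptor for inositol trisphosphate, was at 42.9 ± 5.63 CPM in the second series and 67.9 ± 4.25 CPM in the first (log2FC -0.69, adjusted p of 8.70e-07 in edgeR). *Itpr2*, a related calcium release channel, had a log2FC of -0.38, *Plcb4*, a phospholipase C, -0.21, and *Dagla*, which makes the endocannabinoid 2-arachidonoylglycerol, -0.31. In the Gi/o list 4 of 15 were lower and 2 higher, with *Adcy6* at -0.38, *Adcy9* at -0.29, the channel subunit *Kcnj3* at -0.23 and the G protein *Gnai2* at 0.19.

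In the scaffold of group I receptors 2 of 11 genes were higher, the mGlu5-binding protein *Homer2* (0.18) and *Cyth2* (0.17), and 0 lower. Over all genes 12.4% passed as higher and 15.2% as lower, and the counts of these short lists were not tested against those shares. Among partners of group III receptors, where *Pick1* holds 2 of the 6 IDs, 1 ID was lower. It was *Elfn2* (-0.28), a transmembrane protein that binds these receptors across the synapse. In receptor desensitization the kinase *Grk3* (-0.32) and the arrestin *Arrb1* (-0.37) were lower, *Arrb2* (0.23) and *Rgs2* (0.22) higher, and 1 further gene was lower. *Slc3a2* (0.25) was higher and *Slc7a11* (-0.42), its partner in the cystine and glutamate exchanger, lower. The values in parentheses are log2FCs of the second against the first series, each past an FDR of 5% in edgeR.

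Whether the receptors varied together from sample to sample was examined within each library series, over 15 pairs and 9 samples, which made 30 relations. In exact permutation tests (two-sided) 1 of the 30 had an unadjusted p under 0.05 and 0 passed the adjustment over the 30. It was *Grm3* with *Grm5* in the second series, with Pearson's r of 0.83 (exact permutation p of 0.00472, adjusted p of 0.142) and Spearman's rho of 0.82 (exact permutation p of 0.0108, adjusted p of 0.323), and r of 0.78 without the 2 samples farthest from the median of *Grm3*. In the first series the same pair had r of 0.43 (exact permutation p of 0.255) and rho of 0.52, and r of 0.86 without the 2 samples farthest from the median. Values after such a removal rest on few samples and can be unstable. For *Grm5* with *Grm7* in the first series, r moved from 0.42 to -0.85 without the 2 samples farthest from the median of *Grm5*. *Grm4* and *Grm5* had r of -0.57 in the first series and 0.35 in the second.

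The genes most like each receptor were sought among 17762 genes with a mean of at least 1 CPM (17761 for *Grm7*), by Pearson's r of log2 CPM centred within each series over the 18 samples. These values are maxima over many genes from shared libraries and are given without a test. *Grm5* and *Grm3* shared their leading gene, *Plch1*, a phospholipase C of the eta type, with r of 0.87 and 0.81. *Dicer1* (0.85) and *Asb18* (0.84) followed for *Grm5*, and *Tppp* (0.81), a tubulin-binding protein of oligodendrocytes, and *Rnf185* (0.80) for *Grm3*. *Grm4* had the highest values, with *Nom1* (0.93), *Pfkm* (0.93), the muscle type of phosphofructokinase, and *Myo15* (0.90). For *Grm7* they were *Abcc10* (0.86), *Plk2* (0.84), an activity-induced kinase of dendrites, and *Pcdh15* (0.83). For *Grm2* they were *Mycl* (0.84), *Polr3d* (0.83) and *Ccdc34* (0.80), and for *Grm8* *Gm6158* (0.84), *Haus4* (0.81) and *Gm16549* (0.78).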

How the data were processed

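RNA from the ipsilateral DHSC of mice injected with formalin was sequenced in 18 samples by the authors, who deposited raw counts per Ensembl gene. The methods name TruSeq libraries and an earlier Subread release with GRCm38.p4, whereas the labels name SMART-Seq v4 and Nextera XT libraries for all samples and the submitters' processing notes name Subread 2.0.3, featureCounts and mm10. Which of these made the counts was not settled, and the strand setting of the counting is not given in the sources used here. A deposited table of the authors' own DESeq2 comparison gave the gene symbols, and its fold changes and p-values were not used.

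Groups were taken from the labels and the library series from the library numbers that head the count table. Counts were tested with edgeR 4.0.16 in R 4.3.3 (filterByExpr with a minimum count of 10 and a minimum total of 15, TMM normalization, quasi-likelihood test), with Benjamini-Hochberg adjustment over all genes tested and an FDR of 5%. Males were compared with all females, F2/metestrus with F1/proestrus, and the second series with the first with group as a term. Standard errors were derived from the F statistic and the log2 fold change. Alternatives were DESeq2 1.42.0, size factors, other filters, a robust fit, the library series as a covariate or alone, a replicate block, all 3 groups in 1 fit and leaving out each sample, and, chosen after seeing the data, offsets for transcript GC content or for GC and length and the series comparison within each group. Exon lengths and sequences came from GENCODE vM21 and the GRCm38 reference, which held 55480 of the 55573 gene IDs. The scripts were tested on simulated data. Replicates of a group differed by more than sampling noise in all 45 pairs within groups, with a chi-square per degree of freedom of 15.3 to 108.

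The receptors, the lists and the library series were chosen with earlier results of these data known. The text names all 6 receptors, at most 4 called genes of each pathway list and comparison by smallest p (where none was called, up to 2), and the 3 genes most like each receptor. The floor of 3 counts covers counting error only. The markers named for the sexes are those that passed the FDR and were chosen after their values were seen. The stretch of coding bases is printed for 5 receptors and is not reported here for the other.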

Additional observations from a re-analysis of the deposited data

How the results depend on the processing

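No receptor passed an FDR of 5% between males and females or between the female groups under any alternative run, while the number of all genes called between the sexes moved from 49 to 166 with DESeq2, 31 with at least 10 counts in every sample, 134 with the library series as a covariate, 114 with a GC correction as well, 16 and 13 in the first and second series alone, and 23 and 32 against F1/proestrus and F2/metestrus. Leaving out 1 sample gave 25 (without male 5) to 77 genes (without F1/proestrus 5), with 30 without male 4. Small differences between the sexes changed sign, *Grm4* to 0.036 in the first series alone and within -0.055 to 0.0094 when 1 sample was left out, and *Grm5* to 0.030 and *Grm8* to 0.0085 with the GC and length correction. Between the female groups DESeq2 called 2 genes in place of 0. There *Grm2*, *Grm5* and *Grm8* became -0.12, -0.053 and -0.028 in the first series alone and *Grm4* 0.015 in the second, and leaving out 1 sample gave -0.039 to 0.081 for *Grm2*, -0.071 to 0.016 for *Grm4*, -0.044 to 0.11 for *Grm5* and -0.014 to 0.038 for *Grm8*. Between the library series *Grm4* became -0.0043 with the GC correction and *Grm8* 0.042 with GC and length. In fits with fewer samples, within F1/proestrus, F2/metestrus and males alone, 77, 781 and 1198 genes and 0, 0 and 1 receptors were called. Leaving out 1 sample gave 5832 to 6913 genes and 3 to 4 receptors. With the longest transcript as length, mean levels were 12.3 (*Grm4*), 12.8 (*Grm5*), 18.6 (*Grm7*) and 3.53 RPKM (*Grm8*). Except where the construction of an alternative shows it, the cause was not tested.

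The labels do not say whether equal replicate numbers mark a shared day or batch, and the samples were not treated as pairs. Deviations from the group means correlated at -0.107 to 0.526 between samples of the same number (median 0.25, 11 of 18 pairs above 0.1) and at -0.073 to 0.492 between other numbers of the same series (median 0.18, 26 of 36). With the replicate block 148 genes and 0 receptors were called between the sexes, and 0 genes and 0 receptors between the female groups. No such fit was possible for the library series, within which the numbers are nested.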
